A study of Zea mays with 54 samples.

Results

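The maize genes TE1, rs2, rld1, lbl1, kan1b, ns1 and lg2, which start a leaf and give it its parts, were compared between the outermost cell layer of the shoot apical meristem, the L1, and the corpus beneath it, the L2. The genes were chosen with earlier results of these data known. Their probes were then taken by annotation alone, as every probe whose single annotated gene carried one of these names as symbol or RefSeq synonym. The 7 genes, of 866 genes annotated on their own to a probe, had 27 of the 49280 probes on 3 spotted cDNA array designs, and 26 of these probes had values. TE1, rs2 and rld1 were spotted on all 3 designs, lbl1 on the first and the last, lg2 on the first and ns1 and kan1b on the last.

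All material was the unmutated and untreated inbred line B73, and both layers came from the vegetative meristems of 14-day-old seedlings. L1 and L2 cells were cut from sections with a laser, RNA of 5 to 10 meristems was pooled for a replicate and amplified, and an L1 and an L2 extract were labelled with different dyes and hybridised to the same slide. The 2 extracts of a slide carry the same number in the labels except on slide 1 (L1 extract 1 with L2 extract 2) and slide 5 (5 with 6), and whether that is the true pairing or a label error is unclear. There were 18 slides, named here by number and by design (slides 1 to 6, 7 to 12 and 13 to 18), with L1 in Cy3 on odd slides and in Cy5 on even ones. The labels do not say whether cells of the youngest leaf primordia were taken with the meristem.

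A leaf begins as a group of cells on the flank of the meristem in which knox homeobox genes such as kn1 are switched off. The primordium then sets up an upper (adaxial) and a lower (abaxial) side, through factors and small RNAs that restrict each other, and the blade grows out where these sides meet. In grasses the leaf is further divided at the ligule into sheath and blade. Of the genes described here, TE1 acts on the rate and position of leaf initiation, rs2 on knox silencing, rld1, lbl1 and kan1b on the sides, ns1 on the leaf margin and lg2 on the ligule.

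Values were present for 14401 of 19200, 8991 of 14080 and 14270 of 16000 probes on the 3 designs. Each slide was read 3 times, and the correlations between its readings ran from 0.783 to 0.894 in the first design, 0.312 to 0.828 in the second and 0.424 to 0.66 in the last. Values are given as L1 minus L2, in log units, averaged over the 3 readings, and a difference is the limma estimate over the 6 slides of a design with its standard error. The base of the deposited logarithm was not stated, and a log unit is 2-fold at base 2 and 2.72-fold if the logarithm is natural. That a positive value stands for more transcript in L1 is likely and not stated, and was read from epidermal genes such as ocl1 and from the corpus gene kn1. In the last design ocl1 stood at 1.00 ± 0.045 and the kn1 probe DQ056232 at -1.56 ± 0.1. The other kn1 probes of that design, DQ056233 and DN217695, stood at -0.26 ± 0.094 and 0.02 ± 0.046 (limma adjusted p = 0.311 and 0.889). Of its 4 epidermal marker probes 3 were above 0, and the other, cr4, stood at -0.11 ± 0.086 (limma adjusted p = 0.655).

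Of the 26 probes, 5 were called higher in L1, of TE1, lg2 and ns1, and none lower (limma, adjusted p under 0.05 over all probes of the design). Of these 5, 3 were the same TE1 clone on the 3 designs. Only 1 of the 2 ns1 probes was called. On slides 1 to 6 the count was 2 of 10 probes, where 1.5% of all probes were called higher in L1. On slides 7 to 12 it was 1 of 3 probes, against 0.89% of all probes, and on slides 13 to 18 it was 2 of 13, against 1.02%. Of all probes, 1.34%, 0.545% and 0.554% of the 3 designs were called lower in L1. Because the genes were chosen with earlier results of these data known, a share above that of all probes is no test of them. At an unadjusted limma p under 0.05, 6 of the 26 probes were higher, against 6.87%, 6.47% and 6.31% of all probes of the 3 designs, and 3 were lower, against 7.94%, 7.37% and 6.54%. The exact sign-flip test over slides put 1 probe, rs2 on slides 1 to 6, at its smallest possible p of 0.0312 on the lower side. Values below 0 on 6 of 6 slides always give that p, and 4.18% of all probes there had them. The differences of the 26 probes lay on both sides of 0, with 12 above and 14 below. Their median was -0.03, -0.12 and -0.00 on the 3 designs beside -0.00, -0.02 and 0.00 over all probes. A dye effect was called on none of the 26, where 2.88%, 0.0111% and 0.0% of all probes had one. The p-values speak of the spread over 6 slides. Because L1 extracts numbered 1 to 5 were hybridised to every design, the designs do not repeat each other with new plants.

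**Figure D1:**
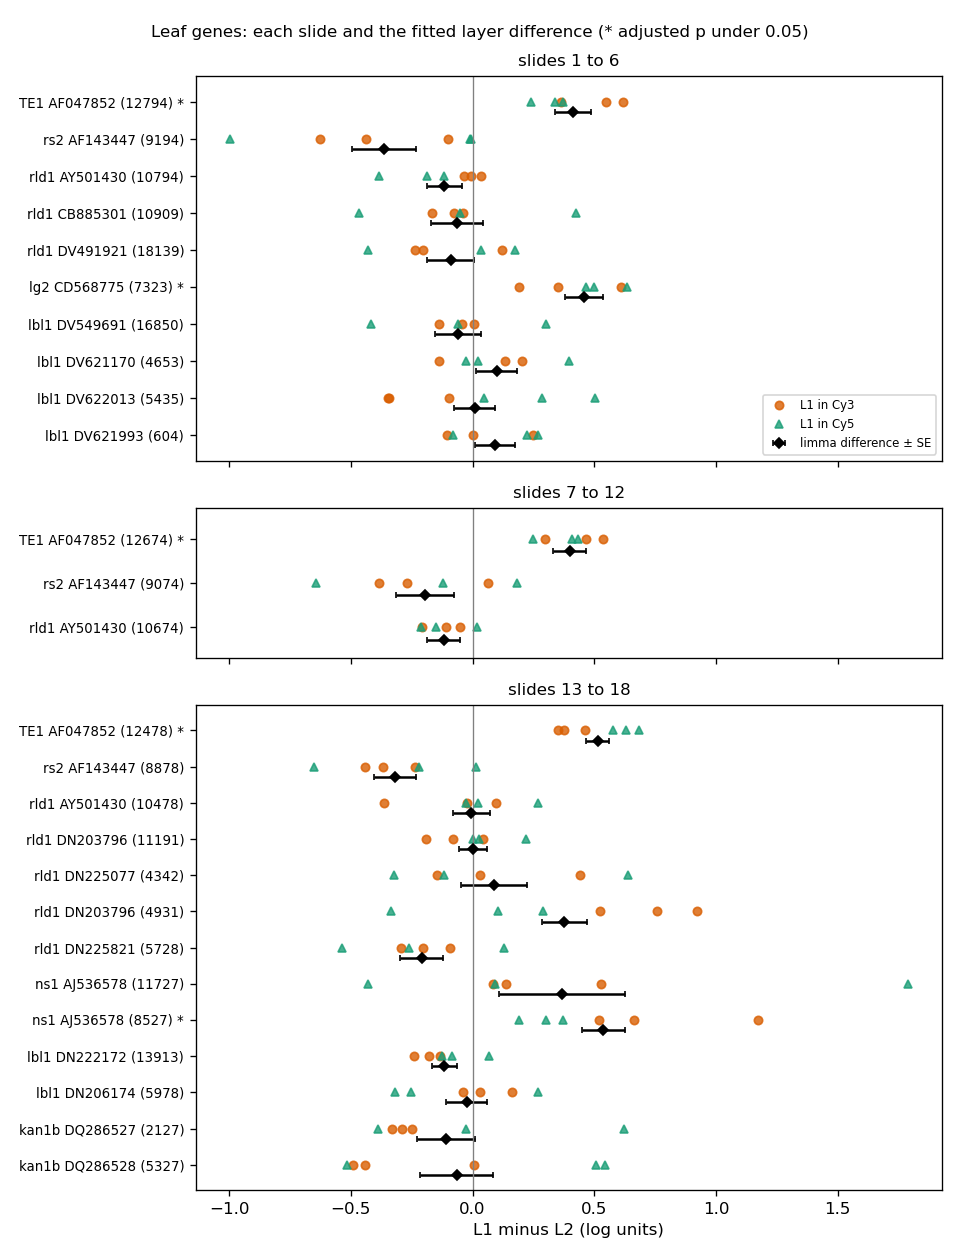
Each row is 1 probe, with the GenBank accession of its clone and its probe number. Circles (L1 in Cy3) and triangles (L1 in Cy5) are slides on an axis of L1 minus L2 in log units, diamonds with bars are the limma difference ± standard error (n = 6 slides), and an asterisk marks an adjusted p under 0.05. TE1 lies to the right of 0 on every slide of all 3 designs, and the rs2 values lie mostly to the left.

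TE1 (terminal ear1) encodes a MEI2-like RNA-binding protein, and maize plants without it make leaves faster and in an altered arrangement. The same clone, AF047852, was spotted on all 3 designs. On slides 1 to 6 its values were 0.62, 0.37, 0.36, 0.24, 0.55 and 0.34. The slides of the second design, 7 to 12, gave 0.54, 0.25, 0.30, 0.41, 0.47 and 0.43. The slides of the last design, 13 to 18, gave 0.46, 0.63, 0.37, 0.58, 0.35 and 0.69. TE1 was thus above 0 on 18 of 18 slides and in 54 of 54 single readings, the lowest of which was 0.079. The slides carry L1 extracts numbered 1 to 8, of which 1 to 5 are on 3 slides each. The 3 readings of a slide are repeats and not replicates, here and for the other genes below. Probes above 0 on all 6 slides made up 3.25%, 3.59% and 4.49% of all probes of the 3 designs. These shares are for the 6 slides of a design and give none for 18.

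The TE1 difference was 0.41 ± 0.073 on slides 1 to 6 (95% interval 0.25 to 0.57, limma adjusted p = 0.0135). It was 0.40 ± 0.069 on slides 7 to 12 (0.24 to 0.56, limma adjusted p = 0.0483) and 0.51 ± 0.047 on slides 13 to 18 (0.40 to 0.63, limma adjusted p = 0.00363). As folds these are 1.33, 1.32 and 1.43 at base 2, or 1.51, 1.49 and 1.67 for natural logarithms. The 3 intervals overlap, and the designs were not tested against each other because they are separate tables whose normalisation is not stated. In pooled cells, more TE1-expressing cells in L1 and more TE1 RNA per cell cannot be told apart.

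The size of the TE1 difference did not follow 1 dye. With L1 in Cy3 its mean was 0.51, 0.43 and 0.40 on the 3 designs, and with L1 in Cy5 it was 0.32, 0.36 and 0.63. In the last design the groups of like dye did not overlap, with the Cy5 slides all above the Cy3 slides, but the dye term was not called on any design (limma adjusted p = 0.427, 0.859 and 0.744). Sorted by L1 extract number, the extracts seen on all 3 designs had TE1 means between 0.34 and 0.54, with number 3 lowest and number 1 highest.

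Among named genes, 21 clone accessions had values on all 3 designs, and only TE1 and ocl1, the epidermal homeobox gene, were called higher in L1 on each of them. None was called lower on all 3. Besides TE1 and ocl1, the yabby gene yab10 was above 0 on every slide. kn1 was not among the 21, because its clones on slides 1 to 6 were not on the other designs. It had a probe called lower in L1 on each design (limma adjusted p = 4.37e-05, 0.000483 and 0.000514 on its lowest probe). The call for TE1 on slides 13 to 18 held in all 15 alternatives run. TE1 had 1 probe there, so averaging by gene or by accession could not change its difference. Its sign-flip p was fixed by all 6 slides being above 0. On slides 7 to 12 it was lost with any 1 slide left out (adjusted p 0.08 to 0.191), and on slides 1 to 6 leaving out slide 1, 2 or 5 ended it (adjusted p of 0.0737 at most).

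**Figure D2:**
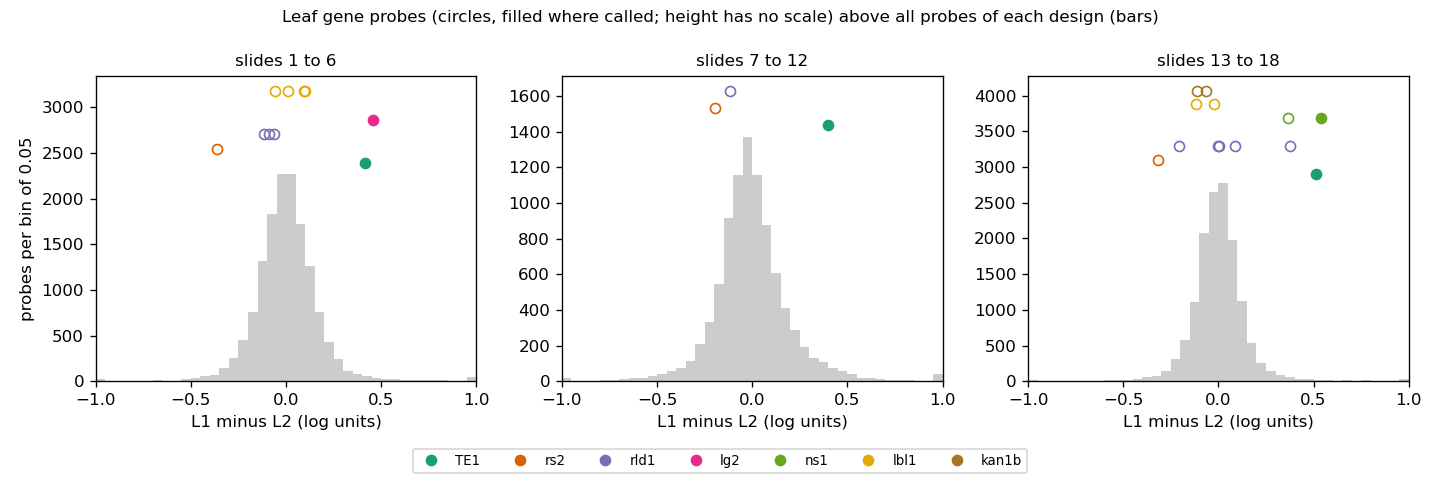
Bars count all probes with values of each design by their L1 minus L2 difference in log units, in bins of 0.05, with values past 1 or -1 counted in the end bins. Circles above are the leaf gene probes, filled where the adjusted p is under 0.05, and their height has no scale. TE1 lies on the right flank and rs2 on the left side of all 3 distributions, and lg2 (slides 1 to 6) and ns1 (slides 13 to 18) lie on the right flank of theirs.

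rs2 (rough sheath2) encodes a MYB factor that keeps knox genes off in leaf primordia, and its RNA is known from primordia rather than from the meristem itself. Its clone AF143447 was also on all 3 designs. The values were -0.44, -0.01, -0.10, -0.01, -0.63 and -0.998 on slides 1 to 6, and -0.27, 0.18, -0.39, -0.12, 0.06 and -0.64 in the second design. In the last design they were -0.24, 0.01, -0.37, -0.22, -0.44 and -0.65. They were below 0 on 15 of 18 slides and in 45 of 54 readings, and in both dye orientations.

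The rs2 difference was -0.36 ± 0.133, -0.20 ± 0.120 and -0.32 ± 0.088 on the 3 designs, and it did not pass the test on any (limma adjusted p = 0.228, 0.517 and 0.178). The first and the last had unadjusted p-values of 0.0206 and 0.00815 in the same limma fit. Probes with a value below 0 on 6 of 6 slides, as rs2 had on slides 1 to 6, made up 4.18% of all probes there. The dye term of rs2 lay between 0.00 and 0.03 (limma adjusted p = 0.926, 0.997 and 0.958).

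Among L1 extracts 1 to 5, extract 5 had the lowest rs2 value on each of the 3 designs. For L1 extract 2 its values were -0.01, 0.18 and 0.01 on the 3 designs, and for extract 4 they were -0.01, -0.12 and -0.22. Extract 5 stood at -0.63, -0.64 and -0.44, below all values of extracts 2 and 4. Extracts 1 and 3 lay between -0.44 and -0.10, and extracts 6, 7 and 8, each on 1 slide, stood at -0.998, 0.06 and -0.65. This order is a description of these 18 slides and was not tested.

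**Figure D3:**
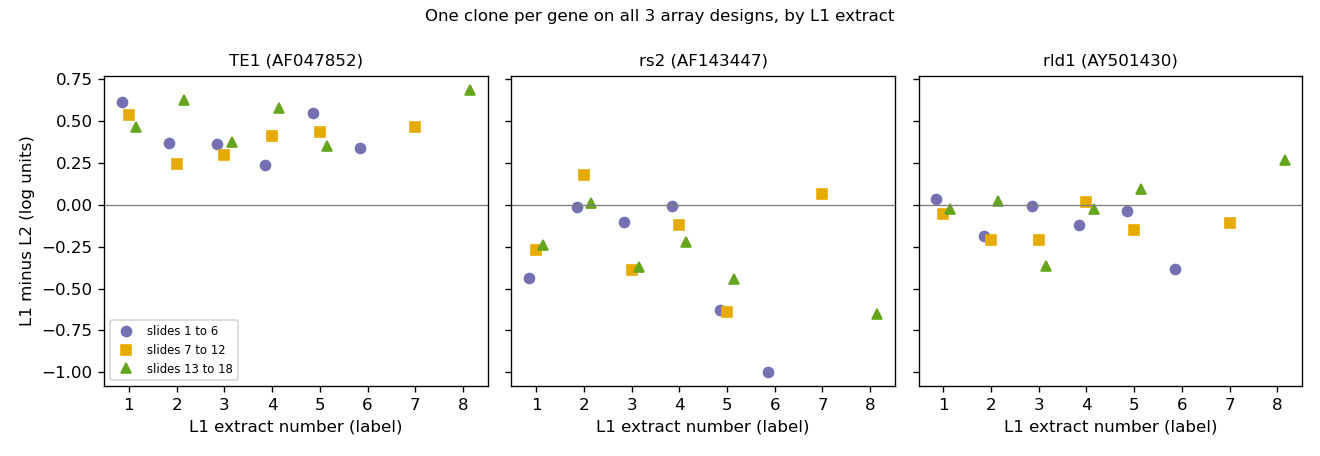
L1 minus L2 in log units (vertical axis) of the TE1, rs2 and rld1 clones shared by all designs, by the L1 extract number in the labels, with 1 point per slide and 1 symbol per design. TE1 is above 0 for every extract, rs2 is near 0 for extract 2, between -0.64 and -0.44 for extract 5 and lowest, at -0.998, for extract 6. rld1 lies on both sides of 0, from -0.38 for extract 6 to 0.27 for extract 8.

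rld1 (rolled leaf1) encodes a class III HD-ZIP factor of the adaxial side, whose transcript is cut back on the abaxial side by the microRNA miR166. It had 10 probes, of which 1 on slides 13 to 18 had no values. None of the other 9 was called (limma adjusted p 0.13 to 0.991), and 22 of their 54 slide values were above 0. The clone on all 3 designs, AY501430, had values of 0.04, -0.19, -0.01, -0.12, -0.03 and -0.38 on slides 1 to 6. In the second design it had -0.05, -0.21, -0.21, 0.02, -0.11 and -0.15, and in the last -0.02, 0.02, -0.36, -0.03, 0.10 and 0.27. Its difference was -0.12 ± 0.072, -0.12 ± 0.067 and -0.00 ± 0.076, with 95% intervals of -0.28 to 0.05, -0.28 to 0.04 and -0.18 to 0.17, and the TE1 difference of each design lies outside the interval of this clone.

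The expressed-sequence clones of rld1 differed among themselves. On slides 1 to 6, CB885301 stood at -0.06 ± 0.106 and DV491921 at -0.09 ± 0.096. In the last design, DN225077 stood at 0.09 ± 0.134 and DN225821 at -0.21 ± 0.087 (limma unadjusted p = 0.0471, adjusted p = 0.379).

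Probes 4931 and 11191, which carry the same accession, DN203796, also differed. Probe 4931 read 0.52, -0.34, 0.76, 0.29, 0.92 and 0.10 on slides 13 to 18, a difference of 0.38 ± 0.092 (limma unadjusted p = 0.00445, adjusted p = 0.13). Probe 11191 read 0.04, 0.03, -0.19, 0.00, -0.08 and 0.22, a difference of 0.00 ± 0.057. On probe 4931 the slides with L1 in Cy3 averaged 0.73 and those with L1 in Cy5 0.02, without overlap (dye term -0.36, limma adjusted p = 0.595). The part of the dye in this gap was not tested beyond that term, and no direction for rld1 can be read from DN203796.

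A further 2 probes of the first design were annotated to both rld1 and its paralog rld2 and were left out by the rule. They stood at -0.05 ± 0.077 and -0.09 ± 0.073 (limma adjusted p = 0.815 and 0.618). rld2 alone, on clone DQ286526, had differences of 0.17 ± 0.154, 0.34 ± 0.142 and 0.07 ± 0.148 and passed no test (limma adjusted p = 0.661, 0.358 and 0.889). Its other clone, DV491911 on slides 1 to 6, lay below 0, at -0.19 ± 0.082 (limma unadjusted p = 0.04, adjusted p = 0.305).

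lbl1 (leafbladeless1) encodes a homolog of SGS3, a protein needed to make the trans-acting small RNAs that keep abaxial factors out of the adaxial side. Its 6 probes had differences between -0.12 and 0.10 and none was called (limma adjusted p 0.4 to 0.979). Of their 36 slide values, 17 were above 0. The clone DN222172 had the largest t among them, at -0.24, -0.13, -0.18, 0.07, -0.14 and -0.08 on slides 13 to 18, a difference of -0.12 ± 0.051 (limma unadjusted p = 0.0542, adjusted p = 0.4). The other lbl1 probe of that design, DN206174, stood at -0.02 ± 0.085, with values from -0.32 to 0.27.

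On slides 1 to 6 the 4 lbl1 clones stood at -0.06 ± 0.095 (DV549691), 0.10 ± 0.086 (DV621170), 0.01 ± 0.084 (DV622013) and 0.09 ± 0.083 (DV621993). The values of DV622013 followed the dye. They were -0.10, -0.34 and -0.35 with L1 in Cy3 and 0.29, 0.05 and 0.50 with L1 in Cy5. Its dye term of 0.27 was the nearest to a call among the 26 probes (limma adjusted p = 0.094), and its layer difference of 0.01 is the mean of these opposed groups.

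kan1b belongs to the KANADI family, GARP-type factors of the abaxial side, and was represented by 2 clones on slides 13 to 18. DQ286527 is annotated to a gene whose RefSeq synonyms are kan1, kan1a and kan1b, and DQ286528 to the symbol kan1b under a gene number that the RefSeq table used here does not hold, so whether they measure 1 gene is unclear. DQ286527 read -0.29, -0.03, -0.25, 0.62, -0.33 and -0.39, and DQ286528 read -0.44, 0.51, 0.01, 0.54, -0.49 and -0.52. The clones shared their highest slide, 16, and their lowest, 18, both of which had L1 in Cy5. The differences, -0.11 ± 0.119 and -0.07 ± 0.149, were not called (limma adjusted p = 0.754 and 0.901), and their 95% intervals of -0.39 to 0.17 and -0.42 to 0.29 are wide.

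ns1 (narrow sheath1) encodes a WOX homeobox factor of the WOX3 type, which acts with its duplicate ns2 in the founder cells of the leaf margin. In maize its RNA is known from foci at the edge of the founder-cell ring and from primordium margins. The last design held 2 probes with its accession, AJ536578. Probe 8527 read 0.52, 0.37, 1.17, 0.30, 0.66 and 0.19, above 0 on every slide and in 18 of 18 readings. Its difference was 0.54 ± 0.088 (95% interval 0.33 to 0.74, limma adjusted p = 0.0363), a fold of 1.45 at base 2 and of 1.71 for natural logarithms.

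Probe 11727 of ns1 did not repeat the call. It read 0.08, 0.09, 0.14, 1.79, 0.53 and -0.43, a difference of 0.37 ± 0.259 (limma adjusted p = 0.605). Its standard error is larger because of slide 16, whose readings were 1.42, 1.87 and 2.08, and slide 18, where it was below 0. On probe 8527 those slides were among the 3 lowest, at 0.30 and 0.19. With the 2 probes averaged into 1 gene mean the ns1 call was lost (0.45, limma adjusted p = 0.231), and it was also lost with any 1 slide left out (adjusted p 0.0542 to 0.155).

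The ns1 probe 8527 was higher with L1 in Cy3, at a mean of 0.79 against 0.29 with L1 in Cy5, and these groups did not overlap. The dye term was -0.25 and was not called (limma adjusted p = 0.72). Without a dye term in the fit the call was lost. The rld1 probe 4931 had the same split, and the part of the dye in either difference was not tested further.

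ns2, on clone AY472082, was on all 3 designs, and its values were 0.36, 0.68, -0.35, 1.29, 0.58 and 0.56 on slides 1 to 6. The second design gave 0.14, 0.27, 0.09, 0.46, 0.68 and 0.40, and the last -0.08, 0.35, -0.00, 0.99, 0.67 and -0.45. ns2 was above 0 on 6 of 6 slides of the second design, as 3.59% of all probes were, on 5 of the first and on 3 of the last. Its differences of 0.52 ± 0.132, 0.34 ± 0.094 and 0.24 ± 0.185 did not pass the test (limma adjusted p = 0.0747, 0.189 and 0.633).

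Slide 16 was the highest and slide 18 the lowest for the ns1 probe 11727, ns2 and both kan1b clones. On slide 16 they stood at 1.79, 0.99, 0.62 and 0.54, and on slide 18 at -0.43, -0.45, -0.39 and -0.52. rld2 was also lowest on slide 18, at -0.47, but highest on slide 14, at 0.49. So low on slide 18 were also rs2 (-0.65), the rld1 clone DN225821 (-0.54) and the ns1 probe 8527 (0.19). Each had its lowest value there, and none of them was highest on slide 16. Other probes went the opposite way, and slide 18 was the highest for the rld1 clones DN225077 (0.64), AY501430 (0.27) and DN203796 on probe 11191 (0.22), for lbl1 DN206174 (0.27) and for ig1 (0.38). TE1 was also highest on slide 18 but differed little between slides 16 and 18, at 0.58 and 0.69. Both slides had L1 in Cy5, and slide 18 holds L1 extract 8, which is on no other slide. Slides 4 and 10, which share L1 extract number 4 with slide 16, had ns2 at 1.29 and 0.46. They had the rld2 clone DQ286526 at 0.89 and 0.42, but the other rld2 clone, DV491911, stood at -0.38 on slide 4. These slides were singled out after the values were seen, and what sets them apart was not tested.

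lg2 (liguleless2) encodes a bZIP factor that positions the ligule, the boundary between sheath and blade. It had 1 probe, CD568775, on slides 1 to 6, with values of 0.35, 0.50, 0.19, 0.64, 0.61 and 0.47. All 6 slides were above 0, as 3.25% of all probes were, and 16 of 18 readings. The 2 readings below 0, at -0.16 and -0.26, were the H readings of slides 1 and 3. The lg2 difference was 0.46 ± 0.079 (95% interval 0.28 to 0.64, limma adjusted p = 0.0122), a fold of 1.37 at base 2 and of 1.58 for natural logarithms.

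The dye orientations of lg2 overlapped, with means of 0.38 and 0.53 for L1 in Cy3 and in Cy5 (dye term 0.08, limma adjusted p = 0.581). Leaving out slide 2 or slide 5 ended the lg2 call (adjusted p of 0.0556 at most), and so did the M or the H reading alone. With 1 probe on 1 design, no other clone measured it.

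**Figure D4:**
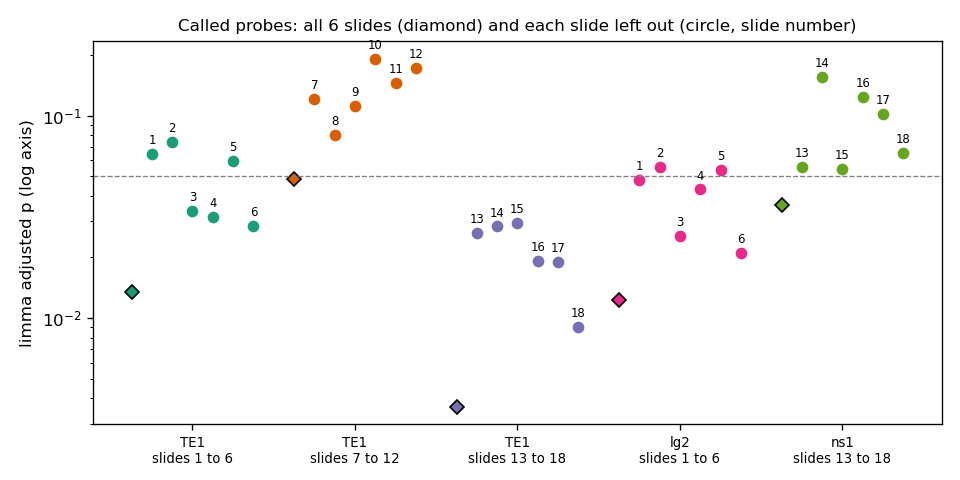
Limma adjusted p (log axis) of the 5 called probes over all 6 slides of a design (diamonds) and with each slide left out (circles, with the slide number). The dashed line is 0.05. TE1 on slides 13 to 18 stays under the line throughout, between 0.00906 and 0.0296, and TE1 on slides 7 to 12 and ns1 are above it whichever slide is left out.

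Other genes of leaf polarity and initiation gave no calls. The list of polarity and small RNA genes held rld2 and ig1, a LOB-domain gene, on 3, 2 and 2 probes of the 3 designs, and none was called, with medians of 0.11, 0.52 and 0.07. ig1 stood at 0.11 ± 0.087, 0.71 ± 0.231 and 0.07 ± 0.069 (limma adjusted p = 0.599, 0.252 and 0.738). The list of initiation, boundary and blade genes, which includes ns2, had 15, 3 and 7 probes, and none was called, with medians of 0.04, 0.06 and -0.04. Of the 15 probes, 5 carry the symbol grf2, which is shared with a 14-3-3 gene, so they may not belong to the list.

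The yabby genes, which mark lateral organs, were on the side of L1. They were above 0 on 3 of 3, 4 of 4 and 5 of 5 probes, with medians of 0.49, 0.60 and 0.80, and 2 probes were called higher in L1 on each design. The called genes were yab10 and yab14 on slides 1 to 6, yab9 and yabby15 on slides 7 to 12, and yabby15 on both its probes on slides 13 to 18. The yabby15 clone AY313902 reached 2.12 ± 0.130 and 1.94 ± 0.064 on slides 7 to 12 and 13 to 18 (limma adjusted p = 0.000602 and 3.52e-05), a larger difference than that of any leaf gene probe on those designs.

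The knox genes, members of which rs2 keeps off in leaves, lay on both sides. kn1 was lower in L1 on 3 of 3, 1 of 2 and 1 of 3 probes, at -1.26 ± 0.093 on its lowest probe of slides 1 to 6 (limma adjusted p = 4.37e-05). knox8 was higher in L1 on 1 of 2 probes of slides 7 to 12, at 0.78 ± 0.135 (limma adjusted p = 0.0483). In the last design both knox8 probes were higher, at 0.55 ± 0.092 and 0.59 ± 0.104 (limma adjusted p = 0.0398 and 0.0451). The other knox genes measured were not called, among them lg3, at -0.14 to -0.01 on its probes.

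Markers of other tissues were compared between the layers in the same way. Values of L1 minus L2 cannot show RNA from older parts of the shoot that was present alike in both layers. Of the epidermal markers, 3 of 6, 3 of 5 and 2 of 4 probes were called higher in L1, all of them ocl1, ocl3 or ocl4. Above 0 were 6 of 6, 4 of 5 and 3 of 4, with ocl2 on slides 1 to 6 at 0.00 ± 0.092. The probes below 0 were an ocl3 probe on slides 7 to 12 and cr4 on slides 13 to 18. They stood at -0.15 ± 0.132 and -0.11 ± 0.086 (limma adjusted p = 0.666 and 0.655). None of the 7, 3 and 8 vascular probes, from sus1, sut1 and sps1, was called, and their medians were -0.08, -0.12 and 0.00. Of the photosynthesis probes of older leaf, none of 5, 2 of 10 and none of 3 were called. Those 2 were of mdh6, a malate dehydrogenase, at -1.24 ± 0.130 and -1.03 ± 0.137 (limma adjusted p = 0.00811 and 0.0202), on the side of L2.

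The genes nearest to each leaf gene in their 6 slide values were taken by the root mean square distance among named probes of the same design. For TE1 on slides 13 to 18, among 1094 probes, they were the epidermal homeobox gene ocl3 (distance 0.177 log units, difference 0.46 ± 0.049) and hir3 (0.187, 0.34 ± 0.054). For lg2 on slides 1 to 6, among 1692 probes, they were the peroxidase PER42 at 0.172 and the LIM gene lim1 at 0.175. For ns1 on probe 8527 they were gst41, a glutathione S-transferase, at 0.241 and ccr2, a lignin-pathway reductase gene, at 0.247.

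For rs2 on slides 13 to 18 the nearest probe was the rld1 clone DN225821, at 0.166, followed by the glycolytic gene GAPC at 0.185. The rld1 probe 4931 had Sod4A, a superoxide dismutase, at 0.282 and yab10 at 0.325. lbl1 on DN222172 had an elongation factor gene, EF1-A, at 0.0395 and GRF6 at 0.0705, and kan1b on DQ286527 had the translation initiation factor eif7 at 0.114 and LOC732747 at 0.17. These distances rest on 6 slides of 1 design and are a description.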

How the data were processed

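Amplified L1 and L2 RNA shared 18 two-colour cDNA slides, 6 per array design. The deposited values were treated as a score: per the file values they are log ratios of the channels, 3 readings (L, M and H) a slide, and the sources used here do not give the authors' normalisation, log base, numerator dye or the meaning of the letters. The tests were written for log2 values and kept. Cy5 was taken as the numerator, and signs were turned so that positive means L1. The median correlation between slides was 0.451, 0.269 and 0.271 for like orientation and 0.0265, -0.164 and -0.162 for opposite orientation on the 3 designs, so the negative correlation sought between opposite orientations was not found on slides 1 to 6. After turning, ocl1 was above 0 and kn1 below 0 on 6 of 6 slides of that design on all their probes.

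The readings of a slide were averaged and each slide was 1 replicate. For probes with values on at least 4 slides, 2 per orientation, limma 3.58.1 (R 4.3.3) fitted a layer and a dye term per design with eBayes (4 residual degrees of freedom), and Benjamini-Hochberg adjustment of the two-sided p-values ran over all its probes. Per the labels, extracts are biological replicates of pooled meristems. Slides 1 and 2, and 5 and 6, share an L2 extract number and were treated as independent. The script was tested on simulated data. The number of slides limits the precision.

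Names came from the array annotation and, by gene number, from RefSeq (Zm-B73-REFERENCE-NAM-5.0), used for names only. The genes and lists (polarity and small RNA, initiation, boundary and blade, yabby, knox, and markers of epidermis, corpus, vasculature and photosynthesis) were chosen with earlier results of these data known. From the lists 4 names that belong to unrelated genes of the same symbol were dropped. All probes of the 7 genes were named, and the 2 nearest named probes to the probe of each gene with the largest t. From the lists every called gene was named, and ns2, rld2, ig1 and lg3 were added after their values were seen. Alternatives were single readings, centring, no dye term, each slide left out, slides 1 and 5 left out, the L2 extract as a random block, robust eBayes, gene means and an exact sign-flip test. Python 3.11.15 and matplotlib 3.10.9 drew the figures.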

Additional observations from a re-analysis of the deposited data

Results flagged for a closer look

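Of the 26 probes, 1 had a slide far from the others of its group. The kan1b clone DQ286527 stood at 0.622 on slide 16, and the next highest of the 6 slides was at -0.0271 so that the gap took up 0.642 of the whole range, above Dixon's critical value. Chance flags about 1 in 20 groups of this kind. The other kan1b clone, DQ286528, was also highest on slide 16, at 0.54. Without that slide the difference of DQ286527 was -0.25 and was not called.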

How the results depend on the processing

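Of 397 alternative values for single probes, 339 kept direction and side of the threshold. Another 29 kept direction but lost the call, and 1 fell under 0.05 in an unadjusted test. The other 28 changed direction, all on probes that were not called. Only the 5 called probes could lose a call, so all 29 losses were theirs. TE1 lost it in 4 of 16, 9 of 14 and 0 of 15 alternatives on the 3 designs. The call was lost in 5 of 16 for lg2 and in 11 of 15 for ns1 probe 8527. The count of called probes on slides 1 to 6 (2 of 10) was 1 with the M or the H reading alone and 0 without slides 1 and 5, a fit that leaves only 1 slide with L1 in Cy3 and so breaks the stated minimum. It ranged from 0 to 2 with 1 slide left out. On slides 7 to 12 (1 of 3) it was 0 with the L, M or H reading alone and 0 with any slide left out. On slides 13 to 18 (2 of 13) it was 1 with the L or M reading alone, with no dye term, with gene means, with probes of 1 accession averaged (added after seeing the data) and with any slide left out. The adjusted p of TE1 ranged over its alternatives from 0.00666 to 0.476 on slides 1 to 6, from 0.0319 to 0.191 on slides 7 to 12 and from 0.00338 to 0.0296 on slides 13 to 18. That of lg2 ranged from 0.0041 to 0.435 and that of ns1 probe 8527 from 0.0376 to 0.234. rs2 on slides 1 to 6 reached the smallest p that the unadjusted exact sign-flip test can give (p = 0.0312). Any probe with all 6 slides on 1 side of 0 reaches it, and 4.18% of all probes there were below 0 on 6 of 6 slides.

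Directions turned, without a call, for rld1 CB885301 with the H reading (0.0212), rld1 DV491921 without slides 1 and 5 (0.023), lbl1 DV549691 with gene means (0.035), lbl1 DV621170 without slides 1 and 5 (-0.0033), and lbl1 DV622013 with the L (-0.0099) and M (-0.0064) readings and without slides 1 and 5 (-0.0317). On slides 13 to 18 they turned for rld1 AY501430 with the L reading (0.0236) and gene means (0.0508), rld1 DN203796 probe 11191 with the M reading (-0.0094), rld1 DN225077 with the M reading (-0.0137), rld1 DN225821 with gene means (0.0508), kan1b DQ286527 with the H reading (0.002) and kan1b DQ286528 with the L reading (0.0168). With 1 slide left out, values ranged from -0.177 to 0.0457 for CB885301, -0.148 to 0.0309 for DV549691, -0.0482 to 0.0662 for DV622013, -0.0525 to 0.0621 for AY501430 on slides 13 to 18, -0.0317 to 0.031 for probe 11191, -0.0545 to 0.185 for DN225077, -0.117 to 0.0294 for DN206174, -0.249 to 0.0043 for DQ286527 and -0.157 to 0.108 for DQ286528. The cause of these changes was not tested. A trend in the shrinkage was not run, since the deposited values hold no intensities. Each L1 minus L2 value is already a difference within a slide, and the L2 extract number as a random block on slides 1 to 6 left the count at 2. The correlation fitted within a block was -0.207, and the limma adjusted p fell to 0.00666 for TE1 and 0.00602 for lg2. A negative correlation does not describe slides made alike by a shared extract, so this fit cannot show what sharing does to the calls.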
